A study of Mus musculus with 12 samples.

Results

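The 36 genes described here code for the enzymes and transporters that take up glucose and turn it into pyruvate and lactate, for the kinases that steer this flow, and for the oxygen-sensing HIF pathway with some of its known targets. They were taken by gene symbol from a written list, and all 36 were found among the 14089 genes of the count table. That list was made with earlier results of these data known. By role they were 3 genes of glucose uptake and trapping, 13 of the glycolytic steps, 4 of lactate and its transport, 3 PFKFB enzymes, 4 pyruvate dehydrogenase kinases, and 9 genes of the HIF pathway and its targets. RNA was sequenced from isolated islets of C57BL/6J mice in 12 libraries, 3 in each of 4 groups, after 24 h of culture. Combination islets received 10 µM ML351 and a mixture of inflammatory cytokines, in which IFN-γ was at 100 ng/ml, TNF-α at 10 ng/ml and IL-1β at 5 ng/ml. Cytokine islets received the mixture alone, ML351 islets the inhibitor alone, and vehicle islets neither. ML351 is a small-molecule inhibitor of 12/15-lipoxygenase, an enzyme that oxygenates fatty acids.

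Glycolysis splits glucose into pyruvate, which either enters the mitochondria through pyruvate dehydrogenase or is reduced to lactate and exported. When oxygen is low, HIF prolyl hydroxylases stop marking HIF proteins for degradation, and HIF then binds short DNA elements and raises transcription of many glycolytic genes. Mature beta cells are known for sending nearly all pyruvate to the mitochondria, and Ldha, Slc16a1 and Hk1 belong to a group of genes known to be kept low in them.

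Totals ran from 20208286 to 27193026 counts per library, and the insulin genes Ins1 and Ins2 took 24% to 33.5% of them. Values below are in CPM, read counts divided by library total and TMM factor, and levels of different genes are compared only per kilobase of exon. The tissue label was checked against markers: the summed level of 10 beta cell markers was 257344 to 321841 CPM in combination, 290239 to 343103 CPM in cytokine, 287123 to 338362 CPM in ML351 and 333248 to 379933 CPM in vehicle islets. This sum includes Ins1 and Ins2. Taken singly, 8 of the 10 markers were called lower and 0 higher in cytokine over vehicle islets, by the test described below. Of all genes tested, 37.2% were called lower. The median log2 fold change of these 10 markers was -2.95, against -0.02 over all genes tested. In combination over ML351 islets 8 of the 10 were also called lower (median -2.79). Alpha cell markers (6 genes) summed to 679 to 1599 CPM in combination and 723 to 1354 CPM in cytokine islets, against 27458 to 40102 CPM in ML351 and 34928 to 39102 CPM in vehicle islets. Endothelial markers (10 genes) summed to 11.1 to 16.8 CPM in combination and 18.7 to 27.1 CPM in cytokine islets, against 111 to 116 CPM in ML351 and 95.9 to 104 CPM in vehicle islets. Macrophage markers (12 genes) ran the other way, with 301 to 308 CPM in combination and 332 to 350.5 CPM in cytokine islets, against 162 to 183 CPM in ML351 and 213 to 220.5 CPM in vehicle islets. Ductal markers (7 of 8 listed were measured) also ran that way, with 2754 to 2939 CPM in combination and 2649 to 3360 CPM in cytokine islets, against 956 to 1165 CPM in ML351 and 900.1 to 1084 CPM in vehicle islets. In islets measured as a whole, fewer cells of a type and less RNA per cell cannot be told apart. The part of these shifts in the results below was not tested.

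Cytokines without ML351 raised most of the glycolytic and hypoxia-response genes. In cytokine over vehicle islets, 26 of the 36 genes (72.2%) rose and 6 (16.7%) fell by edgeR's quasi-likelihood test at a Benjamini-Hochberg adjusted p under 0.05, where 35.3% of all genes tested were called higher and 37.2% were called lower. The median log2 fold change of the 36 was 1.19, against -0.02 over all genes tested. As the 36 were chosen with earlier results of these data known, these differences from all genes are a description and not a test. The 6 that fell were Pfkm, Aldoc, Pfkfb2, Pdk2, Pdk4 and Ankrd37, and 4 were not called: Ldhb, Pfkfb4, Pdk1 and Vegfa. Within this set the largest called changes in either direction were those of Pfkfb3, Adm, Slc2a1 and Hk2 upward and of Pdk4 and Pfkfb2 downward. Without overlap between cytokine and vehicle islets, 26 of the 36 were higher and 7 lower. Such gaps were common: of the 14089 genes tested, 5238 were higher and 5553 lower without overlap. The labels do not state that replicates are separate animals or cultures; each p-value is therefore set against a spread that may be technical.

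**Figure D1:**
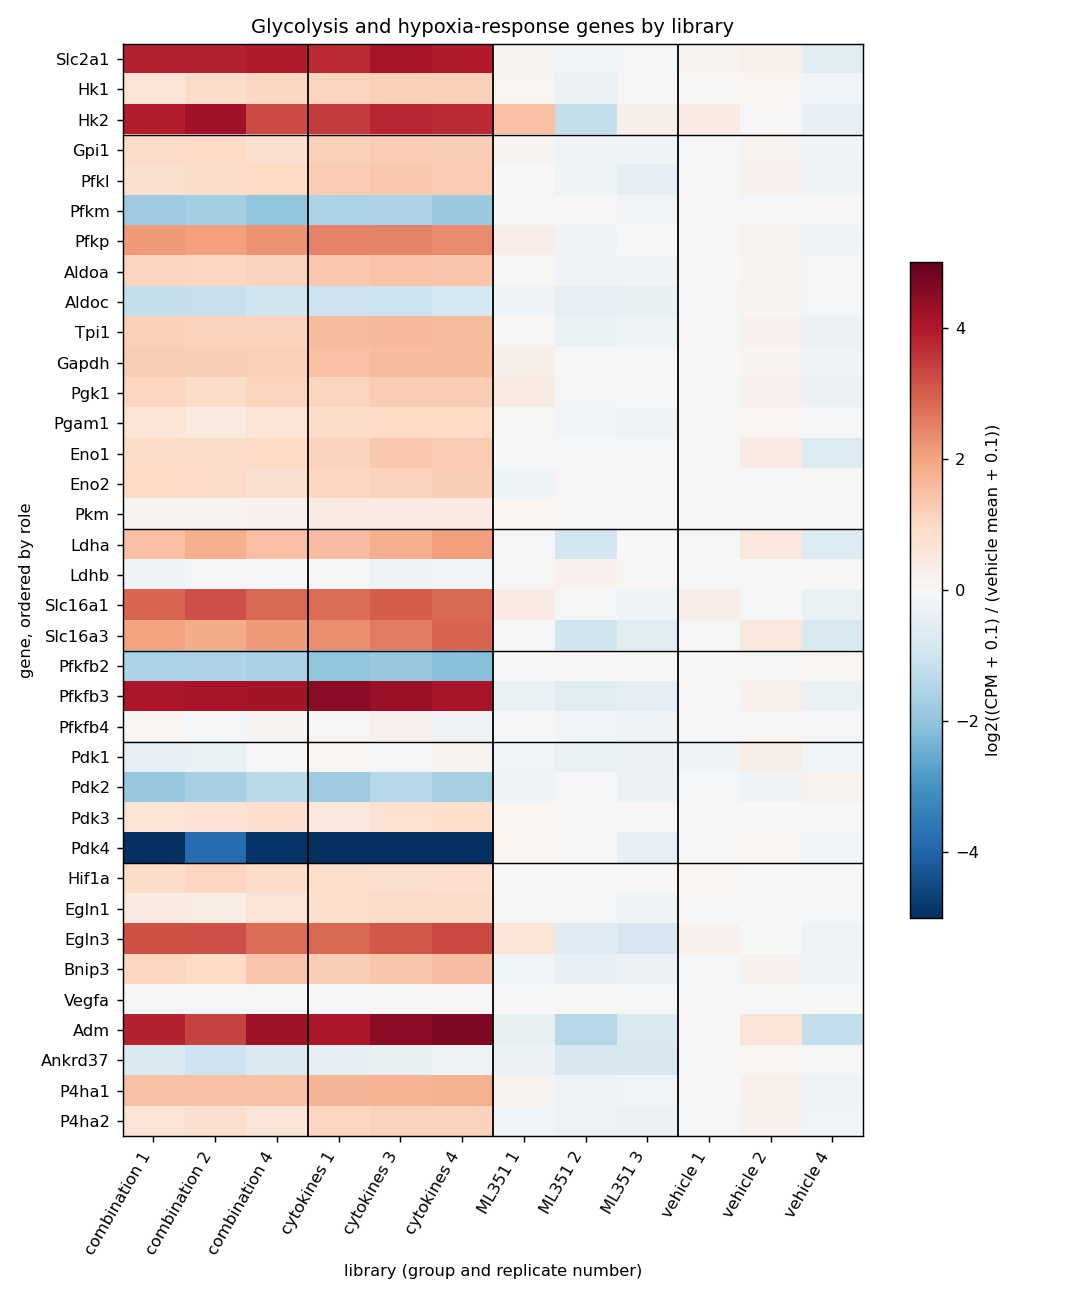
Each row is a gene, ordered by role, and each column a library, combination to vehicle from left to right. Colour gives the log2 ratio of the library's CPM to the vehicle mean (0.1 CPM added to both, colour scale limited at 5 on either side); the 6 libraries with cytokines are red for most genes and blue for Pfkm, Aldoc, Pfkfb2, Pdk2 and Pdk4.

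Promoter sequence is shown for the gene with the largest called rise among well-measured members (Pfkfb3), for the one with the largest called fall (Pdk4), and for Ldha, a lactate gene kept low in mature beta cells. Each is the 250 bases before the most upstream start in RefSeq (GRCm38.p6), read 5′ to 3′ on the gene's strand, with matches to the core of the hypoxia response element (ACGTG or GCGTG on either strand) in capitals. The Pfkfb3 stretch lies at chr2:11553930-11554179 on the minus strand, that of Pdk4 at chr6:5496279-5496528 on the minus strand, and that of Ldha at chr7:46845554-46845803 on the plus strand.
Pfkfb3: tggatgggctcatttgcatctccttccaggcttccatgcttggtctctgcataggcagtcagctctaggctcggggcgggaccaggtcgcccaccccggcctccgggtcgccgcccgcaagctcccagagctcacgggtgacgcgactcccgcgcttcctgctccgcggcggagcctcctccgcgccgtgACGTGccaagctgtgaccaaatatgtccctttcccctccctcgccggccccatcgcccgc
Pdk4: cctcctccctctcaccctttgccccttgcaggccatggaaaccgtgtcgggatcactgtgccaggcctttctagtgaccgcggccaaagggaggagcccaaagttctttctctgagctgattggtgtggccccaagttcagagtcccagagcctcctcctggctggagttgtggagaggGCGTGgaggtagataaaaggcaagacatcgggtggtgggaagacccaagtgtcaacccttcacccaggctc
Ldha: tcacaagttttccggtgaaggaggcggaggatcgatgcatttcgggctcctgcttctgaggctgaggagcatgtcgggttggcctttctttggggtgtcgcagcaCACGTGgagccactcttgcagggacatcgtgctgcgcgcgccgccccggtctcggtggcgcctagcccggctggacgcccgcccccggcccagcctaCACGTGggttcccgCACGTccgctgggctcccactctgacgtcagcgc
These stretches held 1 core match in Pfkfb3, 1 in Pdk4 and 5 in Ldha, where CACGTG, a palindrome, holds a match on each strand. Pfkfb3 rose and Pdk4 fell under cytokines, and each carries a single match in the stretch shown. Pfkfb3 and Ldha each have 2 RefSeq starts and Pdk4 has 1. The Pfkfb3 window not shown (chr2:11502041-11502340, 250 bases before to 50 bases after the start) held 4 core matches. That of Ldha (chr7:46846832-46847131) held 2. Over windows of 250 bases before to 50 bases after each RefSeq start, 33 of the 36 members (91.7%) had a core match in at least 1 window, against 66.6% of the genes of the count table matched by symbol. Counted by window, 43 of 53 member windows (81.1%) and 60.3% of the windows of genes in the table held a match. Some members were listed because they are known HIF targets, and 12 have 2 or more starts. The core also contains the pair CG, which occurs 24 times in the Pfkfb3 stretch, 6 in that of Pdk4 and 25 in that of Ldha. Base composition was not matched in these shares. A core match was present in 23 of the 26 genes that rose under cytokines, in all 6 that fell and in all 4 that were not called. The STAT element TTCNNNGAA (both strands) was found for 2 members, Aldoc and Pfkm, which is 3.77% of member windows, and in 6.95% of the windows of genes in the table. The E-box CACGTG, which overlaps the core, was found for 8 members, in 15.1% of member windows, and in 9.66% of the windows of genes in the table. A match is a run of letters and not a bound site.

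Glucose uptake and trapping rose throughout under cytokines, with all 3 genes called higher, where 35.3% of all genes tested were. Slc2a1 codes for GLUT1, a glucose transporter of many cell types, at chr4:119108711-119137983 in GRCm38. It had 422, 422 and 449 CPM in combination islets, 388, 502 and 452 CPM in cytokine islets, 31.4, 26.5 and 26.9 CPM in ML351 islets, and 31.7, 34.9 and 20.1 CPM in vehicle islets. All 6 libraries with cytokines lay above all 6 without, and Slc2a1 was 15.5-fold higher in cytokine over vehicle islets (log2 fold change 3.95, SE 0.189, adjusted p = 2.1e-08). Hk2, an inducible hexokinase that phosphorylates glucose so that it stays in the cell, was barely measured without cytokines: it had 8.36, 10.3 and 5.29 CPM in combination, 6.21, 7.7 and 7.41 CPM in cytokine, 1.49, 0.146 and 0.591 CPM in ML351, and 0.637, 0.42 and 0.322 CPM in vehicle islets. The vehicle values stand for 31 counts in the 3 libraries together, so the log2 fold change of 3.92 carried a wide SE of 0.559 (adjusted p = 6.4e-05). Hk1, the hexokinase of most tissues, had 22.3, 26.2 and 28.2 CPM in combination, 29.6, 31.3 and 31.1 CPM in cytokine, 14.7, 11.1 and 14.2 CPM in ML351, and 13.7, 14.8 and 12.6 CPM in vehicle islets. It rose 2.23-fold in cytokine over vehicle islets (log2 fold change 1.16, SE 0.113, adjusted p = 5.9e-08), without overlap between the groups.

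Of the 13 genes of the glycolytic steps, 11 rose and 2 fell in cytokine over vehicle islets, with a median log2 fold change of 1.23. Among all genes tested, 35.3% were called higher and 37.2% lower. Pfkl and Pfkp, the liver and platelet forms of phosphofructokinase, rose by 1.29 and 2.44 on the log2 scale, while Pfkm, the muscle form, fell by 1.65 (SE 0.0902, adjusted p = 3.1e-11). Pfkm had 12, 13.2 and 11 CPM in combination, 14.4, 14.7 and 11.9 CPM in cytokine, 40.7, 42.4 and 39 CPM in ML351, and 43.9, 41.7 and 43.2 CPM in vehicle islets. Pfkp had 215, 208 and 238 CPM in combination, 274, 278 and 257 CPM in cytokine, 62.9, 43.5 and 50 CPM in ML351, and 50.2, 56.5 and 42.4 CPM in vehicle islets. Neither gene had overlapping groups between cytokine and vehicle islets. The aldolases split in the same way: Aldoa, the widespread form, rose (log2 fold change 1.39, SE 0.0689, adjusted p = 7.9e-12), and Aldoc, the form best known from brain, fell (log2 fold change -0.99, SE 0.0994, adjusted p = 8.7e-08). Aldoc had 13.5, 13.9 and 15.5 CPM in combination, 15.3, 14.9 and 16.9 CPM in cytokine, 28, 23.6 and 24.2 CPM in ML351, and 30, 34.8 and 29 CPM in vehicle islets. Every cytokine value of Aldoc lay under every vehicle value.

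The enzymes below aldolase all rose. Tpi1, which interconverts the triose phosphates, Gapdh, which oxidises glyceraldehyde phosphate, and Pgk1, which makes ATP in the next step, rose by 1.6, 1.55 and 1.23 on the log2 scale. Gapdh had 1104, 1088 and 1074 CPM in combination, 1306, 1395 and 1384 CPM in cytokine, 574, 459 and 446 CPM in ML351, and 474, 508 and 410.5 CPM in vehicle islets, with no overlap between islets with and without cytokines (log2 fold change 1.55, SE 0.0909, adjusted p = 4.8e-10). Gpi1, the isomerase between glucose and fructose phosphate, rose by 1.23, Pgam1, a phosphoglycerate mutase, by 0.99, and Eno2, the neuron-type enolase, by 1.15. Pkm, the pyruvate kinase of most tissues other than liver, had the smallest called rise of the set (log2 fold change 0.43, SE 0.0549, adjusted p = 1.7e-06). Its values were 1261, 1237 and 1322 CPM in combination, 1516, 1563 and 1515 CPM in cytokine, 1212, 1154 and 1068 CPM in ML351, and 1126, 1159 and 1117 CPM in vehicle islets, again without overlap between cytokine and vehicle islets. Eno1, the widespread enolase, rose by 1.29, but its 1.61 to 6.87 CPM over all libraries are uncertain. Its transcript is 99.5% identical over 1736 bases to that of Eno1b, which was counted separately at 1.89 to 8.55 CPM. Transcripts of at least 95% identity over 200 bases or more also exist for Gapdh (78 genes), Pgk1 (4), Pkm (2), Gpi1, Tpi1 and Pgam1 (1 each), Ldha (4), Ldhb (1) and Bnip3 (5), mostly processed pseudogenes, and reads of these genes may have been split or dropped in the counting. Pfkp shares 17.4% of its exon bases with Pitrm1 on the opposite strand, which counts without strand cannot separate.

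Of the 4 genes of lactate handling, 3 rose under cytokines, where 35.3% of all genes tested were called higher. Ldha, the subunit of lactate dehydrogenase that dominates in glycolytic tissues, spans chr7:46841475-46855627. It had 176, 217 and 177 CPM in combination, 183, 222 and 266 CPM in cytokine, 59.5, 33.3 and 63.3 CPM in ML351, and 59.1, 88.7 and 39 CPM in vehicle islets. The groups with and without cytokines did not overlap, and within groups Ldha varied more than most members, with a coefficient of variation of 18.5% in cytokine and 40.2% in vehicle islets (log2 fold change 1.84, SE 0.336, adjusted p = 0.001). Ldhb, the heart-type subunit, had 9.29, 10.4 and 10.8 CPM in combination, 10.5, 9.47 and 9.72 CPM in cytokine, 11.1, 12.4 and 11.4 CPM in ML351, and 10.9, 10.7 and 10.8 CPM in vehicle islets. Its log2 fold change was -0.12 with a 95% interval of -0.35 to 0.1 (adjusted p = 0.29). Every cytokine value of Ldhb nevertheless lay under every vehicle value. Slc16a1 and Slc16a3, which code for the monocarboxylate transporters MCT1 and MCT4, rose by 2.96 and 2.67 on the log2 scale. Slc16a1 had 16.5, 20.2 and 15.9 CPM in combination, 15.1, 17.8 and 16 CPM in cytokine, 2.76, 1.93 and 1.77 CPM in ML351, and 2.63, 2.01 and 1.61 CPM in vehicle islets. All cytokine-treated libraries exceeded all others for Slc16a1 (SE 0.184, adjusted p = 1.7e-10).

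The PFKFB enzymes make and break the sugar bisphosphate that activates phosphofructokinase, and the 3 of them among the 36 genes differed: Pfkfb3 rose, Pfkfb2 fell and Pfkfb4 was not called. Pfkfb3, the inducible form with a strong bias to making the activator, had 108, 115 and 118.5 CPM in combination, 149.5, 133 and 115 CPM in cytokine, 5.14, 4.23 and 4.69 CPM in ML351, and 6.66, 7.66 and 5.11 CPM in vehicle islets. Islets with and without cytokines were far apart, and Pfkfb3 was 20.4-fold higher in cytokine over vehicle islets (log2 fold change 4.35, SE 0.128, adjusted p = 2.1e-13). Pfkfb2, a form known from heart and beta cells, had 33.6, 34.6 and 32.9 CPM in combination, 25.5, 27 and 23.1 CPM in cytokine, 98.6, 100.8 and 104 CPM in ML351, and 100.2, 95 and 107 CPM in vehicle islets. It fell by 2 on the log2 scale in cytokine over vehicle islets (SE 0.0695, adjusted p = 7.7e-14), with every treated value under every untreated one. Pfkfb4, a hypoxia-inducible form in other tissues, had a log2 fold change of 0 with a 95% interval of -0.29 to 0.3 (adjusted p = 0.99), and its groups overlapped at 5.79 to 7.7 CPM in cytokine and 6.26 to 6.87 CPM in vehicle islets. Pfkfb2 shares 24.7% of its exon bases with Gm29427 on the same strand, so its counts are uncertain in that part.

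The pyruvate dehydrogenase kinases switch off pyruvate dehydrogenase and so hold pyruvate back from the mitochondria. Pdk4, the form induced by fasting in many tissues, fell most of all members. It had 1.17, 3.31 and 1.55 CPM in combination, 0.685, 1.37 and 0.856 CPM in cytokine, 52, 49.4 and 36.8 CPM in ML351, and 49.3, 52.5 and 44.7 CPM in vehicle islets. The cytokine values stand for 17, 28 and 17 counts, and Pdk4 was 50.7-fold lower in cytokine over vehicle islets (log2 fold change -5.67, SE 0.329, adjusted p = 7.1e-08). Pdk2 had 8.06, 9.54 and 11.9 CPM in combination, 8.59, 11.3 and 9.47 CPM in cytokine, 27, 28.2 and 25 CPM in ML351, and 29.3, 27.1 and 34.5 CPM in vehicle islets. It fell by 1.63 (SE 0.137, adjusted p = 1.1e-08) without overlap between the groups. Pdk3 rose by 0.74 (SE 0.0803, adjusted p = 2.5e-07), with 33.8, 38 and 41.1 CPM in cytokine and 22.2, 22.9 and 22.4 CPM in vehicle islets. Pdk1, a known HIF target, was not called: it had 50.3, 43.6 and 52.5 CPM in cytokine and 41.4, 56.5 and 41.9 CPM in vehicle islets, which overlapped (log2 fold change 0.07, adjusted p = 0.63).

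In the HIF pathway and its targets, 7 of 9 genes rose in cytokine over vehicle islets, 1 fell and 1 was not called. The shares of all genes tested were 35.3% called higher and 37.2% called lower. Hif1a, the oxygen-regulated HIF subunit, had 176, 196 and 178.5 CPM in combination, 173, 162 and 170.2 CPM in cytokine, 96.4, 93.4 and 96.5 CPM in ML351, and 100.6, 94.3 and 87.1 CPM in vehicle islets. Its RNA was 1.79-fold higher in cytokine islets, with no overlap (log2 fold change 0.84, SE 0.063, adjusted p = 2e-09). Of the prolyl hydroxylases that mark HIF for degradation, Egln1 (PHD2) rose by 0.93 and Egln3 (PHD3) by 3.2 on the log2 scale. Egln3 had 9.92, 10.2 and 7.62 CPM in combination, 7.98, 9.47 and 10.7 CPM in cytokine, 1.7, 0.619 and 0.512 CPM in ML351, and 1.19, 1.03 and 0.829 CPM in vehicle islets, which left a clear gap between treated and untreated libraries (SE 0.322, adjusted p = 3.7e-07). Adm, the vasodilator peptide adrenomedullin, had 8.01, 5.74 and 10.6 CPM in combination, 9.11, 12.6 and 13.9 CPM in cytokine, 0.34, 0.109 and 0.236 CPM in ML351, and 0.467, 0.794 and 0.138 CPM in vehicle islets. The vehicle values of Adm rest on 31 counts in all, and its log2 fold change was 4.65 (SE 0.406, adjusted p = 2e-07).

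Bnip3, a mitophagy receptor, rose by 1.39, and P4ha1 and P4ha2, subunits of collagen prolyl hydroxylase, rose by 1.73 and 1.11 on the log2 scale. Vegfa, the endothelial growth factor and a standard HIF target, was flat within its error: it had 260, 256 and 259.5 CPM in combination, 257, 269 and 272 CPM in cytokine, 265, 280.4 and 255 CPM in ML351, and 274, 260.3 and 278 CPM in vehicle islets. The groups overlapped, and the log2 fold change of -0.03 had a 95% interval of -0.14 to 0.09 (adjusted p = 0.67). Ankrd37, an ankyrin repeat gene known as a HIF target, had 5.47, 4.42 and 5.39 CPM in combination, 6.49, 6.97 and 7.56 CPM in cytokine, 7.26, 5.21 and 5.2 CPM in ML351, and 8.61, 9.81 and 8.7 CPM in vehicle islets. The cytokine values lay under the vehicle values (log2 fold change -0.37, SE 0.152, adjusted p = 0.038). That call was lost without vehicle replicate 1, 2 or 4 (adjusted p = 0.055, 0.13 and 0.057), without cytokine replicate 1 or 3 (adjusted p = 0.13 and 0.078), and without combination replicate 1 or 4 (adjusted p = 0.052 and 0.051). It was also lost with RLE scaling (adjusted p = 0.053), a replicate block (adjusted p = 0.086) and DESeq2 (adjusted p = 0.072). Ankrd37 shares 20.1% of its exon bases with Lrp2bp and 6.1% with Ufsp2 on the opposite strand, and Bnip3 shares 27.2% with an antisense transcript, Gm45507.

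**Figure D2:**
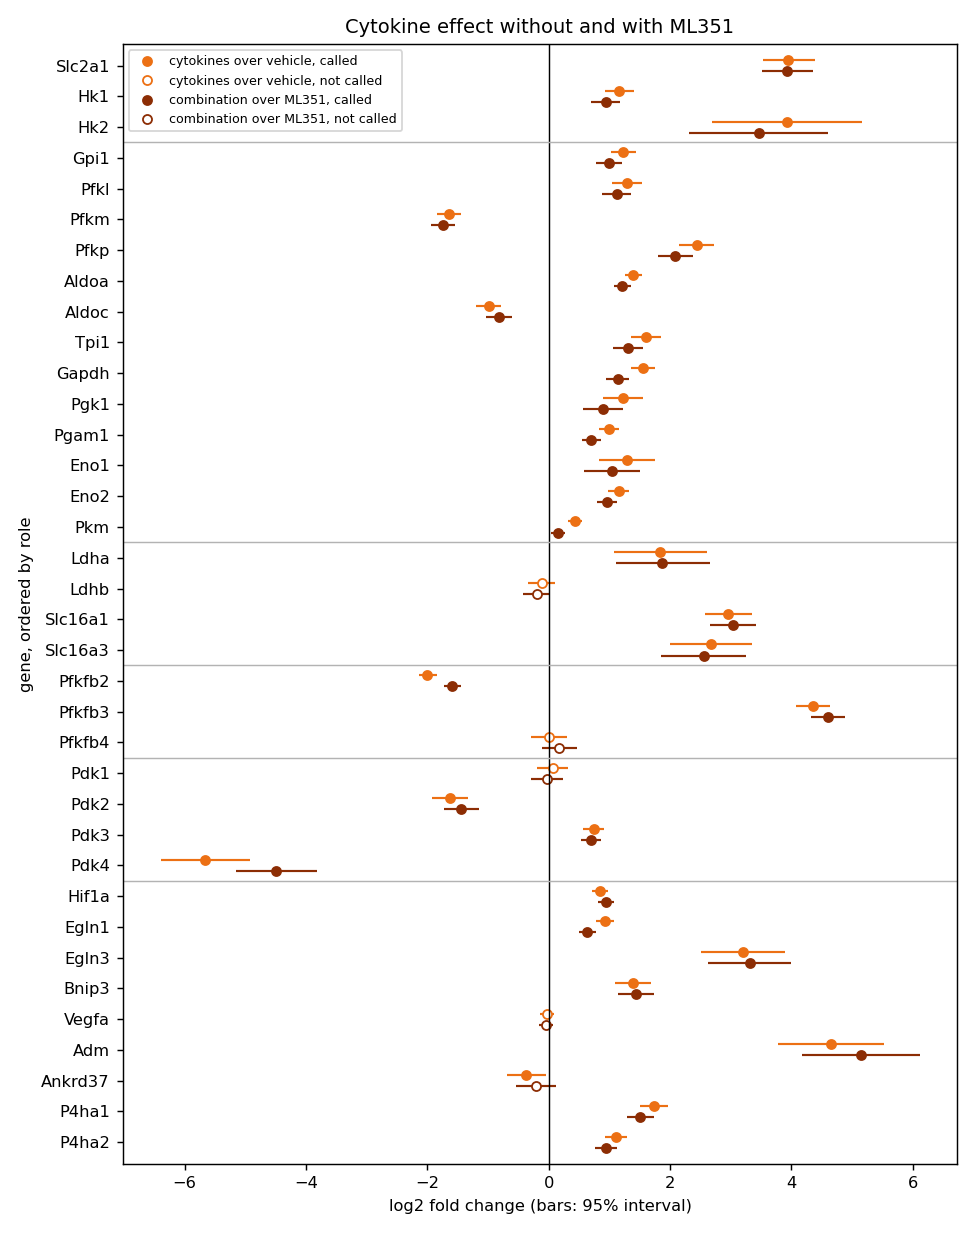
Points give the log2 fold change of each gene for cytokine over vehicle islets (orange) and combination over ML351 islets (brown), bars the 95% interval, and filled points a call at an adjusted p under 0.05. Called rises and falls lie on the same side of 0 in both comparisons for 31 genes, from Adm at 4.65 and 5.14 to Pdk4 at -5.67 and -4.49.

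The share of each isoenzyme in its family, in reads per kilobase, is given here as a description without a test. The largest member differed between islets with and without cytokines in the PFKFB family. By mean share per kilobase it also differed among the pyruvate dehydrogenase kinases, where Pdk4 and Pdk2 were close without cytokines. Pfkl and Ldha were the largest of their families in every group. In the PFKFB family, Pfkfb3 held 69.5% ± 1.12 in combination, 76.6% ± 1.7 in cytokine, 3.62% ± 0.4 in ML351 and 4.94% ± 1.14 in vehicle islets (SD, n = 3 each), and Pfkfb2 held 22.6% ± 1.01, 16.1% ± 1.21, 86% ± 1 and 83.9% ± 2.02 in the same order. Among the pyruvate dehydrogenase kinases, Pdk4 held 1.91% ± 1.09 in combination, 0.875% ± 0.317 in cytokine, 30.1% ± 3.23 in ML351 and 29.7% ± 2.04 in vehicle islets, while Pdk3 held 59.2%, 55.8%, 25.4% and 22.6%. Pdk2 held 14.4%, 13.7%, 27.3% and 28.7%, and Pdk1 24.5%, 29.6%, 17.3% and 19%. Pdk2 exceeded Pdk4 in vehicle replicate 4 (32.8% against 27.4%) and ML351 replicate 3 (27.7% against 26.3%). By read counts the largest share in cytokine islets was that of Pdk1, at 50.2% against 38.7% for Pdk3. The shares of Pfkm among the phosphofructokinases were 3.38% ± 0.434 in combination, 3.02% ± 0.262 in cytokine, 24.6% ± 2.64 in ML351 and 24% ± 2.94 in vehicle islets. Pfkl kept 53.6% to 56.8% of its family in every group, so that Pfkp took up the difference, at 42.8%, 41.5%, 21.8% and 19.2%. Ldha held 92.7% ± 0.844 of lactate dehydrogenase reads per kilobase in combination, 93.8% ± 1.37 in cytokine, 74.3% ± 8.15 in ML351 and 78.4% ± 6.9 in vehicle islets. These shares depend on exon lengths from GENCODE M21, and the annotation used for counting is not given in the sources used here.

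**Figure D3:**
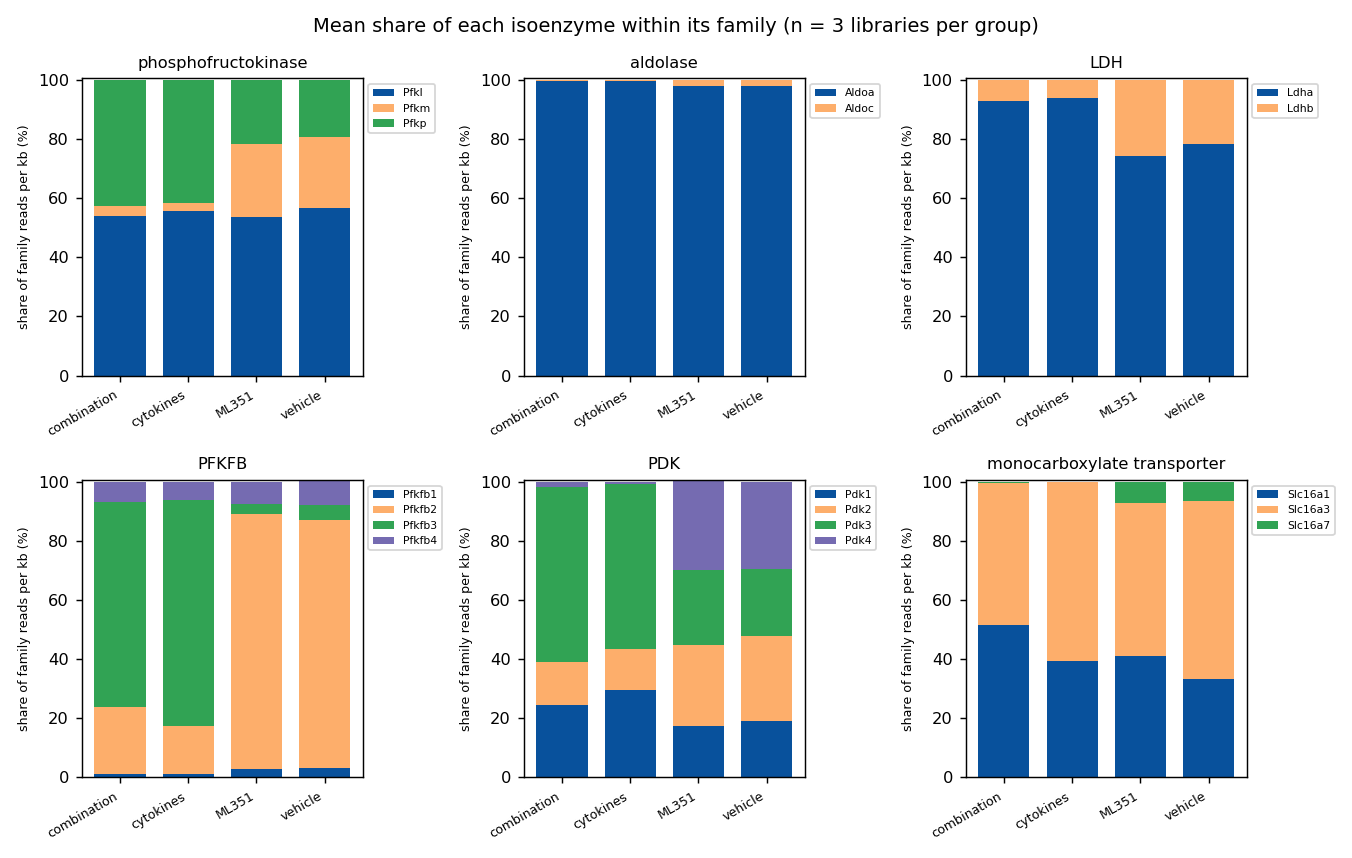
Stacked bars give the mean share of each gene in its enzyme family, in percent of reads per kilobase, for combination, cytokine, ML351 and vehicle islets (n = 3 libraries each). Pfkfb3 takes the place of Pfkfb2 as the largest share with cytokines, Pdk4 nearly vanishes, and Pfkm shrinks beside Pfkp.

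Per kilobase, the most abundant members in vehicle islets were Aldoa at 469.8 CPM per kb, Pkm at 436 CPM per kb and Gapdh at 310.5 CPM per kb. In cytokine islets the order at the top was Aldoa at 1236 CPM per kb, Gapdh at 911 CPM per kb and Pkm at 589 CPM per kb, with coefficients of variation of 2.14%, 3.54% and 1.79%. Slc2a1 had 137 CPM per kb in cytokine and 8.87 CPM per kb in vehicle islets. Hk2 was the lowest member in vehicle islets at 0.0819 CPM per kb.

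Related genes outside the 36 are read against the 35.3% of all genes called higher and the 37.2% called lower in cytokine over vehicle islets. Of 18 other genes of glucose entry and glycolysis tested, 6 rose and 7 fell, near those shares. Slc2a2 (GLUT2), the main glucose transporter of rodent beta cells, averaged 23.9 ± 1.7 CPM in cytokine and 371 ± 22.5 CPM in vehicle islets (SD, n = 3 each), a 15.5-fold lower level (log2 fold change -3.95, SE 0.108, adjusted p = 8.6e-14). Pgam5, a mitochondrial phosphatase, rose by 1.11. Of 9 genes of gluconeogenesis and glycerol phosphate, 8 fell and none rose, among them G6pc2, an islet glucose phosphatase (log2 fold change -3.37, SE 0.11), Pcx, pyruvate carboxylase (-2, SE 0.0758), and Gpd2, the mitochondrial glycerol phosphate dehydrogenase (-1.49, SE 0.0754).

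Of 13 genes of pyruvate entry into mitochondria, 3 rose and 6 fell, so that 69.2% were called against 72.5% of all genes, with Dld, a shared dehydrogenase subunit, at 0.82 and the pyruvate dehydrogenase phosphatases Pdp1 and Pdp2 at -0.97 and -1.72. The pentose phosphate pathway, which makes NADPH, had 3 genes called higher and 1 lower of 8, with Pgd at 1.39, Taldo1 at 1.06 and Rpe at 0.76. Among 9 other HIF regulators 3 rose and 3 fell, and the 66.7% called were likewise near the share of all genes. Arnt and Arnt2, partner subunits of HIF, rose by 0.96 and 1.15, and Cited2, a HIF target that restrains HIF, fell by 1.15. Of 30 other hypoxia targets, 16 rose and 6 fell, with a median log2 fold change of 0.42, against 1.19 for the 36 genes. Ero1l, an oxidase of the endoplasmic reticulum, rose by 1.79, Rora by 1.25 and Ndrg1 by 1.15.

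When ML351 was present in both arms, the called cytokine effects kept their direction, but the rises of most glycolytic steps had smaller estimates. The median log2 fold change of these 13 genes was 0.99, against 1.23 without ML351. Gapdh rose by 1.14 with ML351 and by 1.55 without it, and Tpi1 by 1.3 and 1.6. The interaction given below tests such differences. In combination over ML351 islets, 26 of the 36 genes (72.2%) rose and 5 (13.9%) fell, where 35.2% of all genes tested were called higher and 36.4% lower, and the median log2 fold change was 0.95. This comparison sets other libraries against each other than cytokine over vehicle islets does. Both come from 1 fit of all 12 libraries with a shared estimate of the spread, so their calls are not independent. Between them, 26 genes were called higher in both, 5 lower in both and none in opposite directions, while Ankrd37 was called in cytokine over vehicle islets alone. The share of all genes called alike in both is not given here. Of 14 acinar markers, 11 were called higher in combination over ML351 islets (median log2 fold change 2.81) and 0 in cytokine over vehicle islets (0.42). The part of this shift in these results was not tested. In combination over ML351 islets Pfkfb3 rose by 4.61 (SE 0.131, adjusted p = 1.6e-13), Slc2a1 by 3.93 (SE 0.188, adjusted p = 2.3e-08) and Ldha by 1.87 (SE 0.337, adjusted p = 0.00096), and Pdk4 fell by 4.49 (SE 0.295, adjusted p = 2.1e-07). Pkm had the smallest called rise here (log2 fold change 0.15, SE 0.0548, adjusted p = 0.019), and that call was lost without ML351 replicate 3 (adjusted p = 0.09), with library totals alone (log2 fold change 0.07, adjusted p = 0.28), with a replicate block (adjusted p = 0.06) and with only the groups compared (adjusted p = 0.066).

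In ML351 over vehicle islets 0 of 36 were called by edgeR's quasi-likelihood test, where 0.0355% of all genes tested (5 genes) were called. By that test 4 of the 36 had an unadjusted p under 0.05, as had 1265 of the 14089 genes tested. DESeq2 called 1 of the 36, Ankrd37 (adjusted p = 0.044), and 110 of all genes. The estimate was below 0 for 26 of the 36, against 47.8% of all genes, and the median log2 fold change was -0.08. The genes with the smallest p were Ankrd37 (log2 fold change -0.62, SE 0.153, 95% interval -0.94 to -0.3, adjusted p = 0.18) and Aldoc (-0.31, SE 0.0964, adjusted p = 0.28). For both, every ML351 value lay under every vehicle value, as was also so for Egln1, whereas Ldhb was higher without overlap. In this comparison 8.57% of all genes were higher and 7.32% lower without overlap. Intervals were narrow for abundant genes, -0.1 to 0.13 for Pkm and -0.24 to 0.05 for Aldoa, and wide for scarce ones, -0.81 to 2.08 for Hk2 and -2.34 to 0.26 for Adm.

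With cytokines in both arms, ML351 went with lower levels of several glycolytic and HIF-pathway genes. In combination over cytokine islets 5 of the 36 genes (13.9%) were called, 4 lower and 1 higher, where 1.43% of all genes tested were called, 0.788% lower and 0.646% higher. Egln1, the main HIF prolyl hydroxylase (chr8:124908587-124949324), had 75.2, 72 and 86.2 CPM in combination and 103, 108 and 105 CPM in cytokine islets. Every combination value lay under every cytokine value, and Egln1 was 1.35-fold lower (log2 fold change -0.44, SE 0.0688, adjusted p = 0.0087). P4ha2 had 42.2, 46.5 and 41.4 CPM in combination and 55.2, 58.3 and 58.3 CPM in cytokine islets (log2 fold change -0.4, SE 0.0825, adjusted p = 0.029). Pgam1 had 95.6, 84.2 and 97.3 CPM in combination and 118, 119 and 119.6 CPM in cytokine islets (log2 fold change -0.36, SE 0.0727, adjusted p = 0.027). Neither gene had overlapping groups. Pkm, with 1261, 1237 and 1322 CPM in combination and 1516, 1563 and 1515 CPM in cytokine islets, was also lower without overlap (log2 fold change -0.27, SE 0.0548, adjusted p = 0.029). Pfkfb2 was the gene called higher, at 33.6, 34.6 and 32.9 CPM in combination and 25.5, 27 and 23.1 CPM in cytokine islets (log2 fold change 0.42, SE 0.0706, adjusted p = 0.011), which left it well under the 95 to 107 CPM of vehicle islets.

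**Figure D4:**
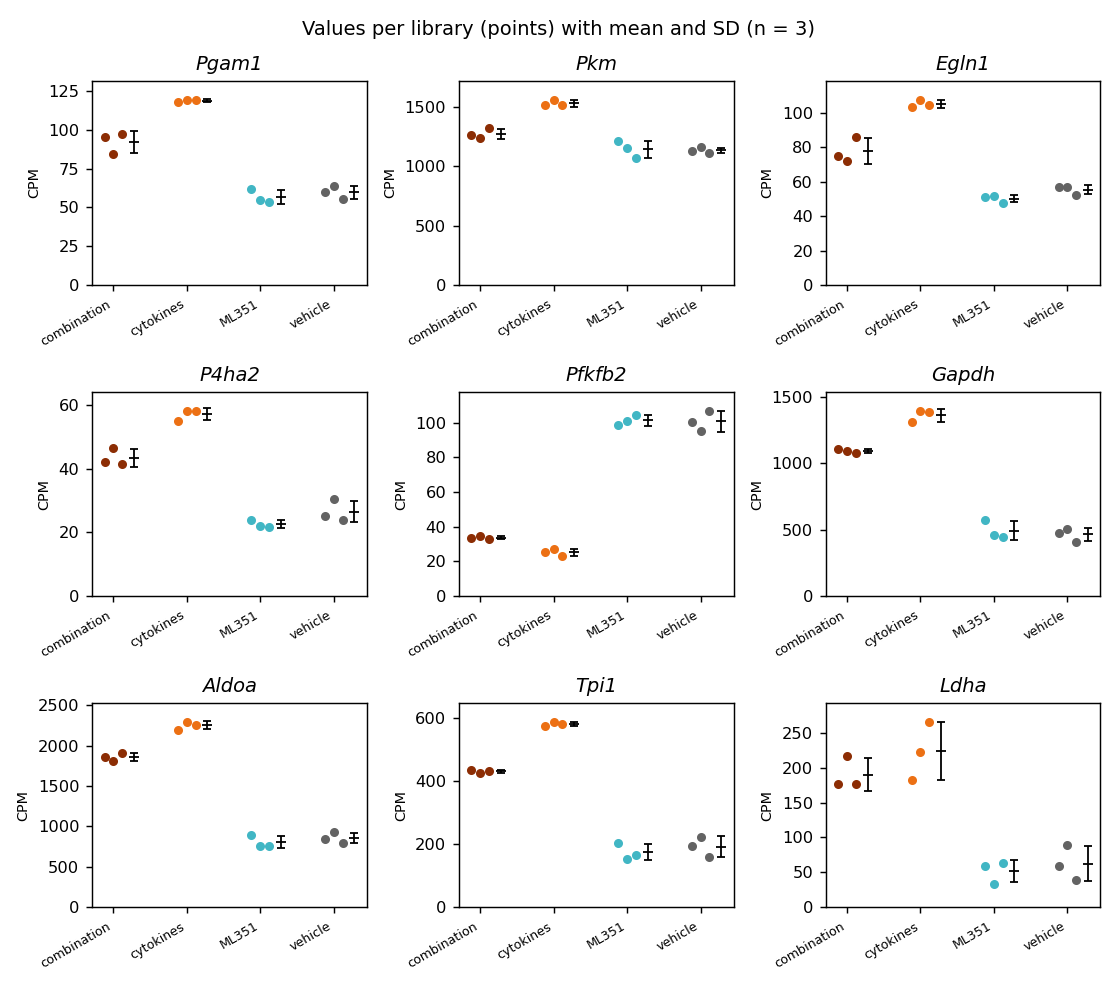
Points are libraries and black bars the mean and SD (n = 3) of CPM in combination, cytokine, ML351 and vehicle islets for 9 genes. In Pgam1, Pkm, Egln1, P4ha2, Gapdh, Aldoa and Tpi1 every combination value lies under every cytokine value, in Pfkfb2 above, and in Ldha the groups overlap.

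Beyond these calls, all 13 glycolytic steps had an estimate below 0 in combination over cytokine islets, where 49% of all genes did, with a median log2 fold change of -0.29 against 0 over all genes. In 10 of these 13 genes (76.9%) and in 17 of the 36 (47.2%) every combination value lay under every cytokine value, where 10.3% of all genes did. Aldoa (log2 fold change -0.28, adjusted p = 0.053), Tpi1 (-0.43, adjusted p = 0.085) and Gapdh (-0.32, adjusted p = 0.088) were among those not called. Aldoa had 1862, 1814 and 1908 CPM in combination and 2201, 2296 and 2263 CPM in cytokine islets. Tpi1 had 434, 426 and 430.3 CPM in combination and 573, 587 and 579 CPM in cytokine islets. In both genes the combination values stayed far above the vehicle values, which were 840 to 930.4 CPM for Aldoa and 158 to 222 CPM for Tpi1. Hif1a, by contrast, was higher without overlap, as 10.1% of all genes were, but not called (log2 fold change 0.13, adjusted p = 0.34), and Slc2a1 (-0.05, 95% interval -0.42 to 0.31) and Ldha (-0.23, 95% interval -0.97 to 0.5) overlapped.

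Among related genes outside the 36, 3 of 30 other hypoxia targets (10%) were called in combination over cytokine islets, where 1.43% of all genes were, and all 3 were lower: Ndrg1, a hypoxia-induced gene (log2 fold change -0.43), Loxl2, a collagen cross-linking oxidase (-0.63), and Plod1, a collagen lysyl hydroxylase (-0.36). Of 9 genes of gluconeogenesis and glycerol phosphate 1 was called, Gpd1, the cytosolic glycerol phosphate dehydrogenase (-0.48), and of 18 other genes of glucose entry and glycolysis 1, Pgm2, a phosphoglucomutase (-0.29). None was called of 13 genes of pyruvate entry, 8 of the pentose phosphate pathway and 9 other HIF regulators. Ndrg1 had 327, 311 and 334 CPM in combination and 421, 478 and 409 CPM in cytokine islets, with no overlap (SE 0.0686, adjusted p = 0.0087).

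Markers of other cell types also differed between these groups. Summed acinar markers (14 of 16 listed were measured) were 1296, 1518 and 1031 CPM in combination and 41, 609 and 866.5 CPM in cytokine islets, and macrophage markers were 301.5, 308 and 301 CPM in combination and 333, 350.5 and 332 CPM in cytokine islets. Endothelial markers were also lower in combination islets, and the part of the acinar, macrophage and endothelial shifts in these results was not tested.

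Which genes were called in combination over cytokine islets depended on the scaling, the fit and single libraries. With library totals alone the 3 calls of Pgam1, Pkm and P4ha2 were lost (adjusted p = 0.08, 0.092 and 0.12). With a replicate block Pgam1 and Pkm were lost (adjusted p = 0.07 and 0.069), and with only the groups compared in the fit Pkm and Pfkfb2 were lost (adjusted p = 0.059 and 0.058). Pgam1 was not called without cytokine replicate 1, 3 or 4 (adjusted p = 0.059, 0.071 and 0.081) or combination replicate 2 (adjusted p = 0.088). Pkm was not called without vehicle replicate 1 (adjusted p = 0.051), cytokine replicate 1, 3 or 4 (adjusted p = 0.059, 0.092 and 0.082) or combination replicate 1 or 2 (adjusted p = 0.053 and 0.088). P4ha2 was not called without cytokine replicate 1, 3 or 4 (adjusted p = 0.051, 0.083 and 0.093) or combination replicate 1 or 4 (adjusted p = 0.06 and 0.05). Egln1 and Pfkfb2 were called without any 1 of the 12 libraries. The count of 5 became 10 without ML351 replicate 1, 2 without cytokine replicate 1, 3 or 4, and 3 without combination replicate 1 or 2. Over all genes the calls, 202 with every library, were 214 without ML351 replicate 1. They were 74, 74 and 54 without cytokine replicate 1, 3 and 4, and 136 and 80 without combination replicate 1 and 2.

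**Figure D5:**
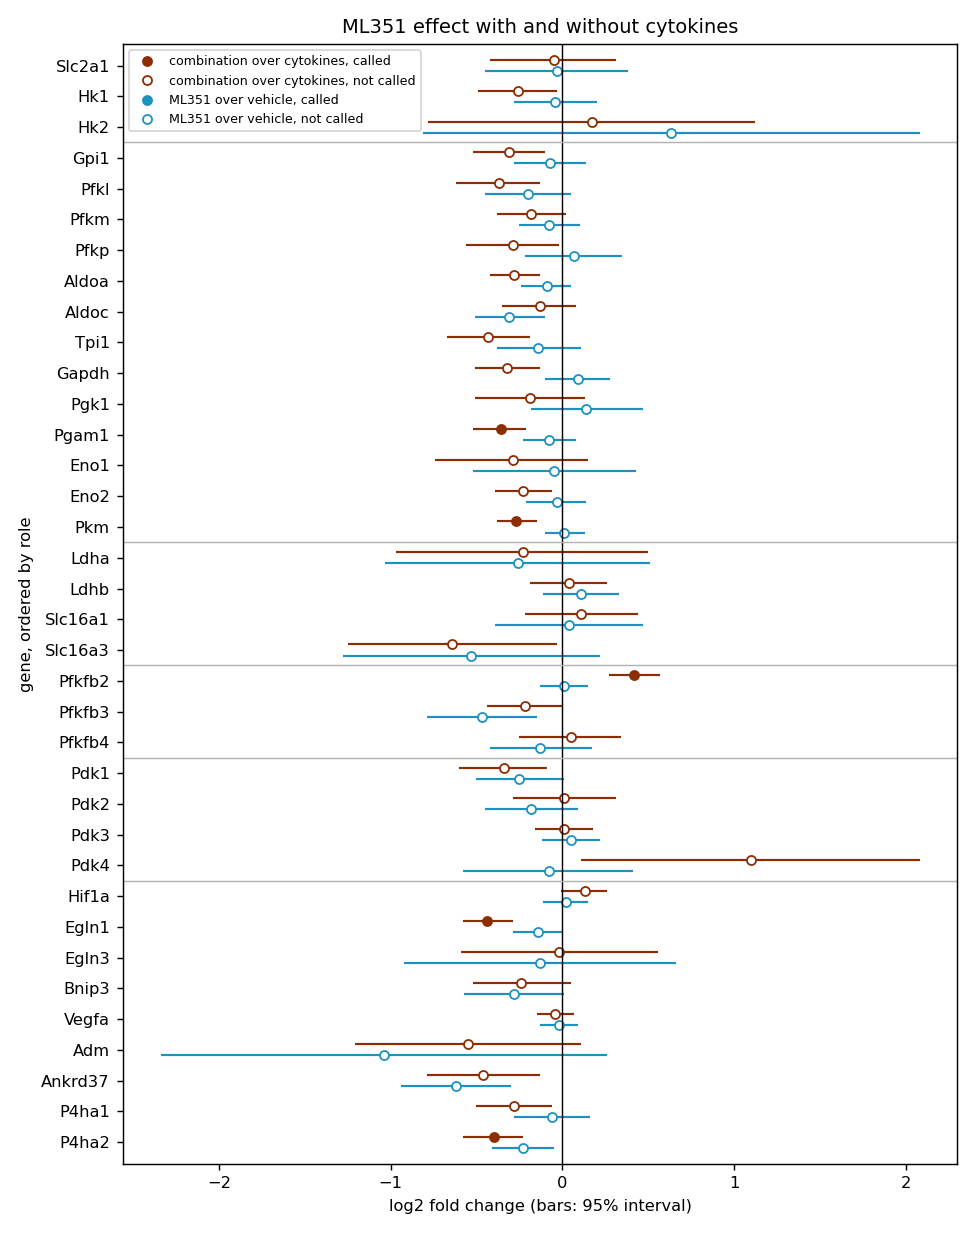
Points give the log2 fold change of each gene for combination over cytokine islets (brown) and ML351 over vehicle islets (blue), bars the 95% interval, and filled points a call at an adjusted p under 0.05. The filled points are Pgam1, Pkm, Egln1 and P4ha2 below 0 and Pfkfb2 above 0, all for combination over cytokine islets.

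Averaged over both backgrounds, ML351 had 5 of the 36 genes called, where 1.55% of all genes tested were called, 0.88% lower and 0.667% higher. Egln1 (log2 fold change -0.29, SE 0.0491, adjusted p = 0.011), P4ha2 (-0.31, SE 0.0597, adjusted p = 0.019), Ankrd37 (-0.54, SE 0.11, adjusted p = 0.027) and Pgam1 (-0.22, SE 0.0519, adjusted p = 0.046) were lower, and Pfkfb2 (0.21, SE 0.0478, adjusted p = 0.039) was higher. Egln1 and P4ha2 were called without any 1 of the 12 libraries, but with library totals alone P4ha2 and Pgam1 were lost (adjusted p = 0.068 and 0.12). With a replicate block Pgam1, Pfkfb2 and Ankrd37 were lost (adjusted p = 0.08, 0.065 and 0.066). Ankrd37 was not called without vehicle replicate 1, 2 or 4, ML351 replicate 2, cytokine replicate 4 or combination replicate 2 (adjusted p from 0.051 to 0.075). Pgam1 was called only in the fits without ML351 replicate 1 or combination replicate 4 (adjusted p up to 0.11 in the others), and Pfkfb2 only in those without vehicle replicate 4, cytokine replicate 3 or combination replicate 4 (adjusted p up to 0.095 in the others). The count of 5 became 2 without vehicle replicate 1 or 2, ML351 replicate 2 or combination replicate 2, and 3 without ML351 replicate 3, cytokine replicate 1 or 4 or combination replicate 1. Over all genes the calls, 218 with every library, were 52, 57, 154 and 115 in the first 4 of these fits, in the order named. In the other 4 they were 219, 85, 81 and 149. Outside the 36, Ndrg1 (-0.34), Gpd1 (-0.28) and Plod1 (-0.22) were called lower. Macrophage markers moved with this comparison, with 4 of 12 called lower and a median log2 fold change of -0.41, and their part in it was not tested.

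Whether the cytokine effect differed with ML351 was tested by the interaction of both treatments, in which 0 of the 36 genes were called by edgeR's quasi-likelihood test, where 0.0071% of all genes tested (1 gene) was called. An unadjusted p under 0.05 by edgeR's test was found for 6 of the 36 and for 1160 of the 14089 genes tested. DESeq2 called 58 of all genes and 2 of the 36, Pkm (adjusted p = 0.014) and Pfkfb2 (adjusted p = 0.016). The smallest p values belonged to Pfkfb2 (log2 interaction 0.41, SE 0.0956, adjusted p = 0.26) and Pkm (-0.28, SE 0.0775, adjusted p = 0.37). Of the 13 glycolytic steps, 12 had an interaction estimate below 0, where 51.5% of all genes did. By edgeR's test no member was shown to respond differently to ML351 with and without cytokines. Pkm and Pfkfb2 were each called under 1 of 19 alternatives, DESeq2, with adjusted p up to 0.6 and 0.55 in the others.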

How the data were processed

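Whole islets were profiled by RNA-seq with a kit that does not mark strand, per the labels' protocols. The deposited file holds raw read counts per gene, made by the authors. The tools DESeq2, STAR, FastQC and featureCounts (Subread) and the build mm10 are listed without roles or versions, per the submitters' processing notes; the annotation used for counting is not given in the sources used here. From the counts, all 12 libraries were fitted together in edgeR 4.0.16 (limma 3.58.1, R 4.3.3) with TMM factors and the robust quasi-likelihood test, 6 comparisons, and Benjamini-Hochberg adjustment over all 14089 genes; the low-count filter removed no gene. Standard errors come from the fold change and its F value, and intervals are at 95%. The steps were tested on simulated data.

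The members and all other gene lists were chosen with earlier results of these data known. All 36 members are named. From other lists the 3 genes with the smallest p in cytokine over vehicle islets, Slc2a2, G6pc2 and any gene called in a comparison of ML351 are named; 1 gene that this rule also names is not reported here, and Eno1b was added after its values were seen. Totals of at least 20208286 counts leave scarce genes such as Hk2 and Adm imprecise. Replicates of a group differed beyond sampling noise, with a chi-square per degree of freedom of 4.07 to 21. Alternatives were other scalings (RLE, totals alone, TMM without insulin genes), filters, DESeq2 1.42.0, fits of only the groups compared, each library left out, and a replicate block. For genes outside the 36 these alternatives were not tried. Transcript copies, exon overlaps and exon lengths come from GENCODE M21 (GRCm38), and promoters from RefSeq (GRCm38.p6), where all 36 members matched by symbol.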

Additional observations from a re-analysis of the deposited data

How the results depend on the processing

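No value turned its direction where it was called. The cytokine results moved little: 26 genes were called higher in cytokine over vehicle islets under all 20 alternatives and 5 to 6 lower, and in combination over ML351 islets 25 to 26 were called higher and 5 to 7 lower. The ML351 results moved more. In combination over cytokine islets 5 of the 36 genes were called, against 2 with library totals alone, 3 with a replicate block, 10 with DESeq2, and 2 to 10 when a library was left out. Over all genes these settings called 202, against 78, 53 and 527, and 54 to 236 when a library was left out. For the averaged effect of ML351 the count was 5, against 3 with totals alone, 2 with a replicate block, 12 with DESeq2, and 2 to 7 when a library was left out. All-gene calls were 218, against 398, 88 and 577, and 52 to 270 when a library was left out. In ML351 over vehicle islets DESeq2 called 1 of the 36 (110 of all genes, against 5), and in the interaction 2 (58 of all genes, against 1). Why the tools differed was not tested.

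The share of all calls that were higher in combination over cytokine islets was 45%, against 33.3% with RLE scaling, 71.8% with totals alone and 33% with DESeq2; for the averaged effect it was 43.1%, against 30.8% with RLE and 85.4% with totals alone. In 13 pairs of libraries with the same replicate number, deviations from the group mean correlated at -0.377 to 0.202 (median -0.069), 2 of them above 0.1. In 41 pairs with different numbers they correlated at -0.301 to 0.466 (median 0.017). Deviations within a group of 3 depend on each other, and the labels do not explain the numbers. These correlations therefore cannot decide whether the numbers pair the samples. Computed from read counts in place of reads per kilobase, the change of share in cytokine minus vehicle islets was -17.4 percentage points for Pfkm (-21 per kilobase), 74.5 for Pfkfb3 (71.7) and -31.9 for Pdk4 (-28.8).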

Other observations

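Within groups, many of the 36 genes were highest or lowest in the same library. Of the vehicle libraries, replicate 2 was the highest for 26 of the 36 genes and for 29.4% of all genes, and replicate 4 the lowest for 27 of the 36 and for 33.1% of all genes. For the 13 glycolytic steps these numbers were 11 and 11. Of the ML351 libraries, replicate 1 was the highest for 26 of the 36 and for 30.8% of all genes. Of the cytokine libraries, replicate 1 was the lowest for 26 of the 36 and for 36% of all genes, and of the combination libraries replicate 4 was the highest for 20 and for 35.5% of all genes. The genes of a library are not independent, and no test was made.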
